A study of Mus musculus with 16 samples.

Results

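Gonadal fat of mice infused with SHU9119 into the brain was compared with that of mice infused with vehicle, with the surgery done beforehand as a blocking factor, so that the difference is averaged over both surgeries. All 16 libraries of the series enter, 8 with SHU9119 and 8 with vehicle, and 16682 of the 24454 genes in the table had enough counts to be tested. Every mouse was a lean C57BL/6J male of 16 weeks on chow. Within each infusion group 4 libraries followed subdiaphragmatic vagotomy (sDVX), which severs the vagus nerve just below the diaphragm, and 4 a sham operation. The infusion began 4 weeks after surgery and ran for 2 weeks from osmotic minipumps into the cerebral ventricles, at 1 nmol of SHU9119 per day, and all groups were held to the same calorie intake. The groups are written VX_SHU, Sham_SHU, VX_Veh and Sham_Veh, with 4 libraries each. Whether every library stands for 1 mouse is not said in the labels, so a p-value here measures the spread between libraries, and that spread may be technical. The comparison belongs to the question of whether brain melanocortin signals reach white fat through the vagus nerve.

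Hypothalamic melanocortin neurons release peptides cut from pro-opiomelanocortin that activate the receptors MC3R and MC4R, and agouti-related peptide opposes them. SHU9119 is a synthetic peptide that blocks both receptors. In rodents, such a block is known to favour lipid storage in white fat even when food intake is held constant. White adipocytes store energy by making fatty acids from glucose, joining them to glycerol as triglyceride and keeping them in a lipid droplet. The SREBP transcription factors switch on genes of fatty acid and cholesterol synthesis, and INSIG proteins hold them back. As a depot grows, the collagen sheath around each adipocyte is remodelled.

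Library totals lay between 20425295 and 30889052 counts and averaged 25569032 ± 3210988 with SHU9119 and 25443320 ± 2376752 with vehicle (SD, n = 8 each; exact two-sided permutation test within surgeries, p = 0.907). Levels below are CPM, that is counts scaled to a common library size after TMM normalization. Adipoq, which encodes the adipocyte hormone adiponectin, spanned 2167 to 3173 CPM with SHU9119 and 1205 to 3957 CPM with vehicle. RNA of neighbouring male tissues was also present. The summed epididymis markers had a lowest, median and highest value of 7.643, 50.98 and 10450 CPM with SHU9119, against 6.64, 62.37 and 9831 CPM with vehicle, and the testis and sperm markers 52.33, 123.6 and 1314 CPM, against 48.37, 132.3 and 2705 CPM. The summed markers of ciliated epithelium, which is no part of fat, moved with the infusion: 51.92, 79.32 and 266.7 CPM with SHU9119, against 52.71, 423.4 and 1390 CPM with vehicle. All 17 of these markers had a negative log2 fold change, with a median of −2.52, and none passed the test described next. Dnah5 was at 0 in 1 library and Rsph4a in 2, and the other markers had counts in all 16. The vehicle libraries Sham_Veh3 (60.14 CPM) and VX_Veh4 (52.71 CPM) lay within the range of the SHU9119 libraries, and the other 6 vehicle libraries, from 362.3 CPM up, lay above it. In bulk tissue, fewer cells of a type and less RNA per cell cannot be told apart.

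SHU9119 fat had more mRNA for 6 of 20 cholesterol-synthesis enzymes, 9 of 17 collagens, 3 of 14 triglyceride-assembly enzymes and 4 of 12 genes tied to depot expansion. Fewer genes were called lower than higher in the test used here, and these were of more mixed kinds. At an unadjusted edgeR p under 0.05 more genes were lower (2669) than higher (2118). In all, 299 genes (1.79% of those tested) passed an adjusted p of 0.05 in edgeR's quasi-likelihood test with Benjamini-Hochberg adjustment over all genes. Of these, 237 (1.42%) were higher with SHU9119 and 62 (0.372%) were lower. The genes called higher had a median log2 fold change of 0.53 and the genes called lower one of −0.45, and 27 of them lay at 1 or above and 11 at −1 or below. The median of all genes was −0.035, and 44.6% of genes lay above 0. In 35 of the 237 every SHU9119 library stood above every vehicle library, and in 4 of the 62 every one stood below; the same held for 40 genes (0.24%) and 11 genes (0.0659%) of all those tested.

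Most calls sat just under the threshold: 211 of the 299 had an adjusted p of 0.04 or more in edgeR, 1 was under 0.01, and 2665 genes were under 0.1. Single libraries therefore decided how many genes passed. The count was 2 to 6 without VX_SHU1, VX_SHU3, Sham_SHU1, Sham_SHU2, Sham_SHU4, VX_Veh3, Sham_Veh1, Sham_Veh2 or Sham_Veh3. It was 49 without Sham_Veh4, 118 without VX_Veh1, 340 without VX_SHU2, 430 without VX_Veh2, 624 without VX_SHU4, 1099 without Sham_SHU3 and 1308 without VX_Veh4. Fmr1 and Tph2 passed in all 16 of these fits, Trp53inp2 in 10, Adamts2 and 1 further gene in 9, and every other gene in 8 or fewer. The direction held for all 237 and all 62 genes in each of the 16 fits, with medians of 0.49 to 0.57 for the genes called higher and −0.48 to −0.41 for those called lower, though these fits share most of their libraries. The surplus of genes called higher also depended on the test: DESeq2 called 1355 higher and 1509 lower, and edgeR without the 6 libraries richest in epididymis or testis markers called 1378 higher and 2023 lower. With the ciliated marker sum added to the model, all kept their direction with medians of 0.42 and −0.37 and 0 genes passed edgeR's adjusted threshold, while 1503 had an unadjusted p under 0.05. With the replicate number as a block 0 genes passed as well, while 4204 had an unadjusted edgeR p under 0.05. Of the 39 named genes called higher, the 2 vehicle libraries with low ciliated sums lay below all SHU9119 libraries in 27 (Sham_Veh3) and 32 (VX_Veh4), and the other 6 vehicle libraries did so in 26 to 39. Of 12 named genes called lower, Sham_Veh3 lay above all SHU9119 libraries in 7 and VX_Veh4 in 4, and the others in 4 to 12. These genes were chosen for a difference between these same libraries, so such counts are partly built in and test no cause. The ciliated sum differs between the infusions, so that what belongs to each cannot be told apart in the fit with that sum.

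**Figure D1:**
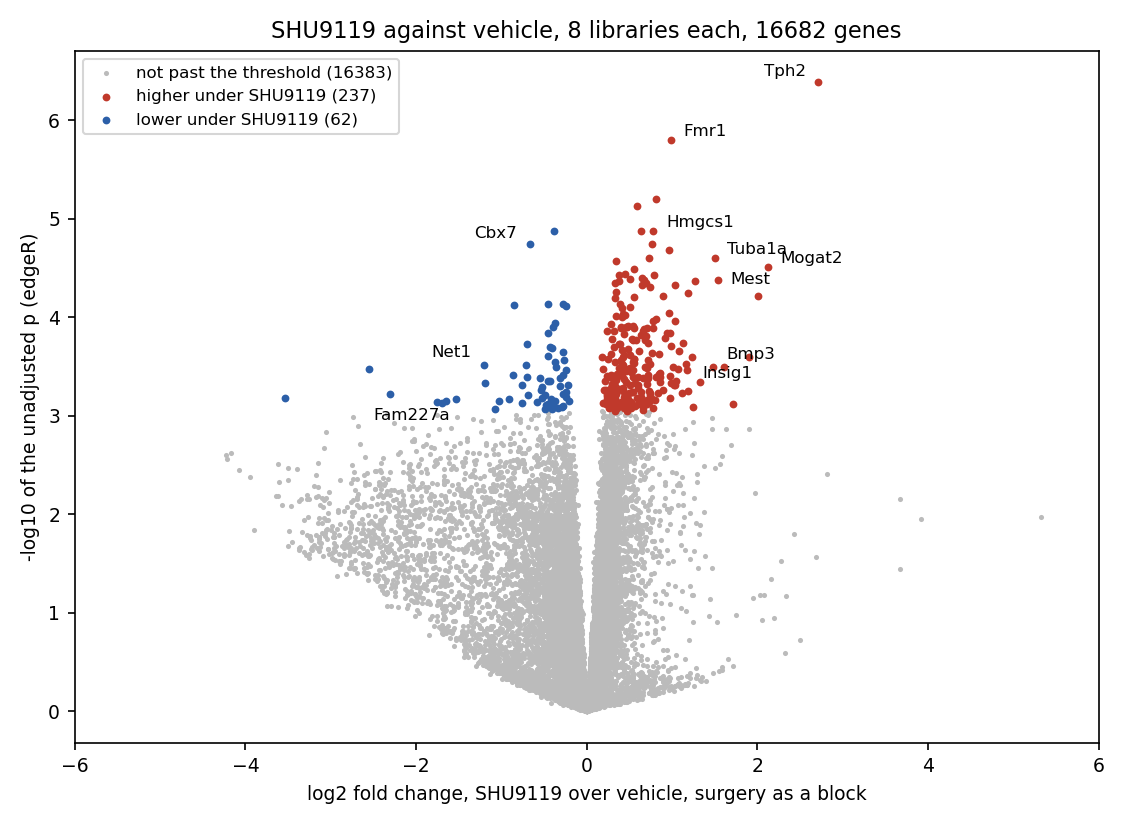
Each point is 1 of 16682 genes: the log2 fold change of SHU9119 over vehicle is on the x axis, and −log10 of the unadjusted edgeR p on the y axis. The 237 genes called higher (red) and the 62 called lower (blue) lie just above a dense band of uncalled genes (grey), with Tph2 and Fmr1 at the top.

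Among 20 genes of cholesterol synthesis, 6 passed the test upward (1.42% of all genes did) and 0 downward. All 20 log2 fold changes lay above 0, with a median of 0.61 against −0.035 for all genes. The median stayed between 0.56 and 0.71 with any 1 library left out, while the number called ran from 0 to 12, and it was 0.42 with the ciliated sum in the model. Hmgcs1, the enzyme that makes HMG-CoA (mm10, chromosome 13, 119690351 to 119708260), had a lowest, median and highest level of 237.3, 357.3 and 472.7 CPM in SHU9119 libraries, against 140.4, 203.8 and 314.5 CPM in vehicle libraries. The overlap came from Sham_Veh2, at 314.5 CPM. Its log2 fold change was 0.78 ± 0.12 (SE; edgeR adjusted p = 0.0281), and it passed in 8 of the 16 fits that leave out a library.

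Others of the 6 act at later steps. Idi1, which isomerises the first isoprene unit, rose by 0.71 ± 0.14 on the log2 scale. Lss, which closes the sterol ring, had 45.68, 73.1 and 147.2 CPM with SHU9119 and 26.47, 33.27 and 49.44 CPM with vehicle as lowest, median and highest, and rose by 1.12 ± 0.26 (edgeR adjusted p = 0.0457). Its groups overlapped at the edge. Near the end of the pathway Sc5d, a desaturase of the sterol nucleus (0.94 ± 0.19), and Dhcr7, a reductase of it (0.97 ± 0.18), rose. Mvd, which decarboxylates mevalonate diphosphate, had a log2 fold change of 0.93 ± 0.26 and missed the threshold (edgeR adjusted p = 0.0618). Of 18 genes of sterol sensing and transport, 1 rose and 0 fell, with a median of 0.17, which was 0.099 without Sham_SHU4 and 0.002 with the ciliated, epididymis and testis sums in the model. That gene was Insig1, the sterol sensor that keeps SREBP in the endoplasmic reticulum and is itself an SREBP target. Insig1 had 281.3, 440.0 and 845.8 CPM with SHU9119 and 129.2, 202.6 and 281.3 CPM with vehicle, and the lowest SHU9119 library still stood above the highest vehicle library by less than these digits show. It rose by 1.24 ± 0.26 (edgeR adjusted p = 0.0415). The genes of the factors themselves, Srebf1 (0.23) and Srebf2 (−0.14), did not pass.

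The promoters of 4 of the genes just described are shown with the letters that SREBP and its partner NF-Y are known to read; all 4 hold an NF-Y box, and Hmgcs1 also holds the sterol element core. They are RefSeq sequences of build GRCm38.p6, from 250 bases before to 50 after the start site, all on the plus strand, at chr13:119690101-119690400 (Hmgcs1), chr13:8885356-8885655 (Idi1), chr10:76531355-76531654 (Lss) and chr5:28071162-28071461 (Insig1). Capitals mark matches to TCACNCCAC, a sterol regulatory element core, and to CCAAT, the NF-Y box, on either strand, so that a box on the other strand reads ATTGG.
Hmgcs1: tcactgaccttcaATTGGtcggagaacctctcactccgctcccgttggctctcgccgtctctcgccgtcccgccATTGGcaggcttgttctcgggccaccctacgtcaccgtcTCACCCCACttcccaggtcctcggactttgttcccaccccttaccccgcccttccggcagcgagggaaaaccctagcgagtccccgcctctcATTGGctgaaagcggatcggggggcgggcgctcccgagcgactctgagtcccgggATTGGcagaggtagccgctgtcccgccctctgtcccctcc
Idi1: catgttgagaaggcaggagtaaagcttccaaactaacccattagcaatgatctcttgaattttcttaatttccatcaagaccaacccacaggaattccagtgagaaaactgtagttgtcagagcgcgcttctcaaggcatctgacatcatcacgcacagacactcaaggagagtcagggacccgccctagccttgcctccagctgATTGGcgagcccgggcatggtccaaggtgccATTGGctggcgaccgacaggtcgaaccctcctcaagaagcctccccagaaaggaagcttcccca
Lss: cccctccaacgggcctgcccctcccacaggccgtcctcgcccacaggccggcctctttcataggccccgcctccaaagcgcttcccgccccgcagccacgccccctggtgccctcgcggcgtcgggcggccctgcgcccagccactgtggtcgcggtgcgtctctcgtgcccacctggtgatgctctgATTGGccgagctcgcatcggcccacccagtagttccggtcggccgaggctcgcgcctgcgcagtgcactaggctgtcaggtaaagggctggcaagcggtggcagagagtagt
Insig1: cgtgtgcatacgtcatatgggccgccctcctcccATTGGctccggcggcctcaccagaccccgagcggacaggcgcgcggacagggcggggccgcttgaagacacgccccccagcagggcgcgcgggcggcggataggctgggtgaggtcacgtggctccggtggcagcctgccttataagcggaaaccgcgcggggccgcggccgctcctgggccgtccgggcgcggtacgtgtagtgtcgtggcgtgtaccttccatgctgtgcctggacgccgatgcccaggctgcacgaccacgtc
Hmgcs1 held 1 TCACNCCAC match and 4 NF-Y boxes, Idi1 2 boxes, and Lss and Insig1 1 box each, and no marked matches overlapped. An NF-Y box stood in the promoter of 14 of 15 cholesterol-synthesis genes with a sequence (93.3%) and of 12 of 16 fatty acid synthesis genes (75%), against 42% of 13116 tested genes. The share was 46.5% among the 185 genes called higher that have a promoter sequence and 41.2% among the 51 called lower. TCACNCCAC was found in 1 of the 15 (6.67%), against 1.47% of all, and CACGTG, an E-box, in 20%, against 10.7%. A match is a description of the letters in this window and no measure of binding.

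Fatty acid synthesis genes had large fold changes with a wide spread between libraries, and 1 of 20 passed upward and 0 downward. That gene was Elovl1, which lengthens very long fatty acids (0.28 ± 0.07; edgeR adjusted p = 0.0478; 0.18 with the ciliated sum in the model). The list's median was 0.745, and 17 of 20 lay above 0. The median was 0.525 without VX_SHU3 and 0.879 without VX_Veh3, and 0.28 with the ciliated sum in the model. Scd2, a desaturase, had 541.9, 801.4 and 1268 CPM with SHU9119 and 215.5, 357.9 and 762.4 CPM with vehicle. The ranges overlapped, and its 1.15 ± 0.29 missed the threshold (edgeR adjusted p = 0.0566). Scd1 and Scd2 are close relatives, and how reads that fit both were counted is not given in the sources used here. Acly, which makes cytosolic acetyl-CoA (1.38 ± 0.46), Elovl6 (1.38 ± 0.56), Fasn, the fatty acid synthase (1.10 ± 0.40), and Scd1 (0.86 ± 0.30) missed it as well, with adjusted p-values between 0.0834 and 0.125 in edgeR. Of 8 pentose phosphate genes, the route that supplies NADPH for lipid synthesis, Rpe passed (0.52 ± 0.13, or 0.34 with the ciliated sum) and the list's median was 0.45. Its NADPH-making enzymes G6pdx (0.78 ± 0.21) and Pgd (0.82 ± 0.21) did not, at edgeR adjusted p-values of 0.061 and 0.0597.

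Triglyceride assembly had 3 of 14 genes higher and 0 lower, and those 3 include the last step. Mogat2, which acylates monoacylglycerol (chromosome 7, 99219084 to 99238611), had 3.853, 7.524 and 20.39 CPM in SHU9119 libraries, against 1.218, 1.886 and 3.023 CPM in vehicle libraries. Its neighbour Dgat2, which completes triglyceride (chromosome 7, 99153663 to 99182713), had 2094, 2892 and 3848 CPM, against 848.5, 1612 and 1994 CPM. For both genes all 8 SHU9119 libraries stood above all 8 vehicle libraries. Mogat2 rose by 2.12 ± 0.36 log2 units (edgeR adjusted p = 0.0281) and Dgat2 by 0.92 ± 0.18 (0.0367). Agpat2, which adds the second acyl chain, rose by 0.97 ± 0.23 (0.0465), and its value was 0.59 with the ciliated sum in the model. The other members were nearer to 0, among them Dgat1 (0.12 ± 0.17) and Gpam (0.17 ± 0.29), and the list's median was 0.16. That median was 0.105 without VX_Veh1, 0.307 without Sham_Veh3 and 0.03 with the ciliated sum in the model. None of 10 fatty acid uptake genes (median 0.32) and none of 14 lipolysis and lipid droplet genes (median 0.20, and 0.316 without Sham_Veh3) passed; Fabp5, a fatty acid carrier, had 1.00 ± 0.29 and Plin2, a droplet coat protein, 0.78.

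Genes whose fat level is known to follow depot expansion in mice were higher in 4 of 12 cases and lower in 0, with a list median of 0.425. Mest, an imprinted gene that marks expanding fat (chromosome 6, 30733506 to 30748466), had 51.54, 103.8 and 222.1 CPM with SHU9119, against 22.19, 27.42 and 75.61 CPM with vehicle. The ranges overlapped. Mest rose by 1.54 ± 0.27 log2 units (edgeR adjusted p = 0.0281). Bmp3, a secreted factor of the BMP family, rose by 1.49 ± 0.32, Npr3, the natriuretic peptide clearance receptor, by 0.99 ± 0.20, and Lpgat1, a lysophospholipid acyltransferase, by 0.66 ± 0.13. Sfrp5 (0.47 ± 0.38) and the caveolin genes Cav1 (0.34) and Cav2 (0.35) did not pass. Lep, the satiety hormone gene whose level follows fat mass, had 479.1, 868.1 and 1341 CPM with SHU9119 and 224.6, 525.1 and 652.8 CPM with vehicle, and its 0.96 ± 0.26 missed the threshold (edgeR adjusted p = 0.0604). The adipocyte regulator Pparg had a log2 fold change of 0.18 ± 0.16 and Adipoq one of 0.11 ± 0.17, and the Adipoq value turned to −0.11 with the ciliated sum in the model and to −0.01 in sham mice alone.

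**Figure D2:**
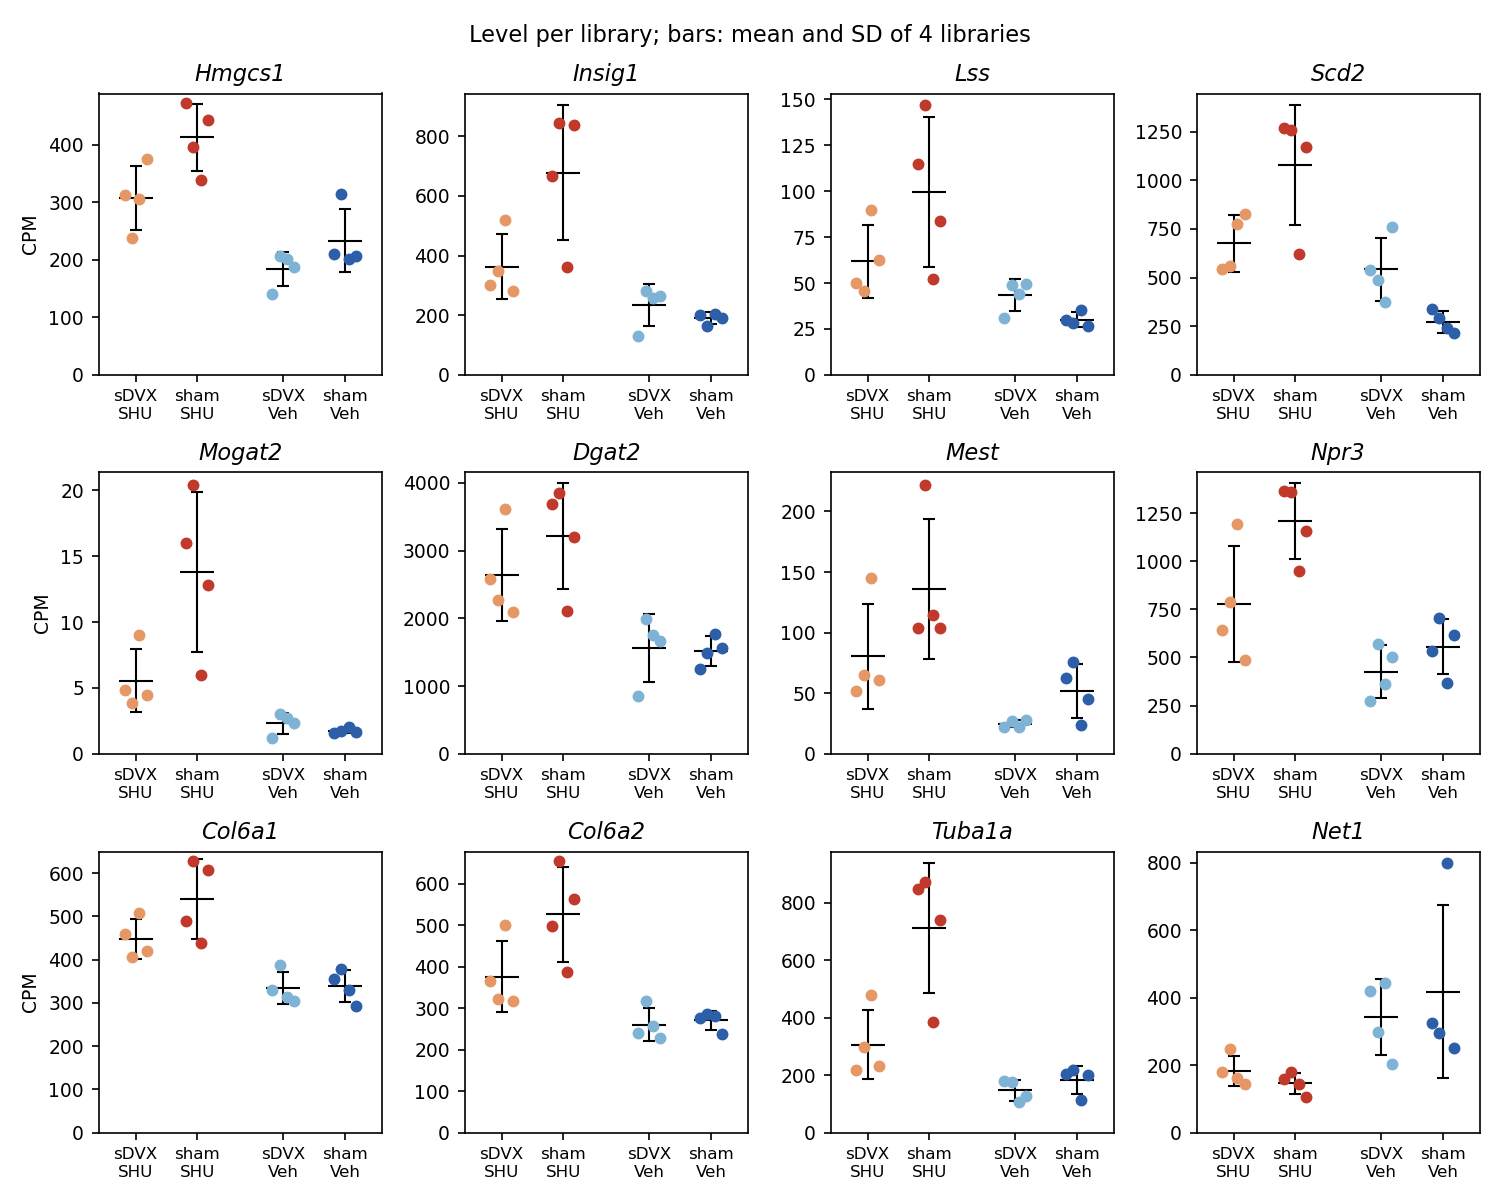
Each panel gives 1 gene in CPM; points are libraries, bars are means with the SD of 4 libraries, and the groups run VX_SHU, Sham_SHU, VX_Veh, Sham_Veh. Mogat2, Dgat2, Col6a1 and Col6a2 show all SHU9119 libraries above all vehicle libraries, and Net1 shows vehicle libraries reaching 799.3 CPM.

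Few genes of glucose handling passed the test, and 1.42% of all genes were called higher. Of 18 glycolysis and glucose uptake genes 1 rose and 0 fell, 13 lay above 0 and the median was 0.34. The called gene was Pfkp, the platelet-type phosphofructokinase. Pfkp had 77.94, 93.28 and 105.5 CPM with SHU9119 and 59.01, 68.33 and 75.36 CPM with vehicle. Its groups did not overlap, and the log2 fold change was 0.45 ± 0.08 (edgeR adjusted p = 0.0281). Of 13 glycogen genes 1 rose and 0 fell, with a median of 0.28: Ppp1r3d, which targets a phosphatase to glycogen (0.69 ± 0.12). With 1 library left out, the number called higher ran from 0 to 2 for glycolysis and from 0 to 3 for glycogen. The liver-type glycogen synthase Gys2 had a larger fold change with a wider error (1.56 ± 0.44; edgeR adjusted p = 0.0625). It reached 78.03 CPM in the highest SHU9119 library and 19.67 CPM in the highest vehicle library, and the lowest SHU9119 library had 13.62 CPM.

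Collagens had more called members than any other of the 28 pathway lists: 9 of 17 rose and 0 fell, and 16 of 17 lay above 0, with a median of 0.55. Without any 1 library that median stayed between 0.535 and 0.632 and 0 to 10 members were called; with the ciliated sum in the model it was 0.40. Col6a1, Col6a2 and Col6a3, which encode chains of collagen VI, a microfibril of the adipocyte's coat, rose. Col6a1 (chromosome 10, 76708792 to 76726044) had 405.6, 474.2 and 628.9 CPM in SHU9119 libraries, against 291.8, 329.9 and 386.5 CPM in vehicle libraries. Col6a2, nearby on the same chromosome (76595756 to 76623630), had 317.9, 442.0 and 655.7 CPM, against 227.7, 267.2 and 317.5 CPM. In both genes the 8 SHU9119 libraries stood above the 8 vehicle libraries. The log2 fold changes were 0.55 ± 0.09 for Col6a1, 0.74 ± 0.13 for Col6a2 and 0.65 ± 0.11 for Col6a3 (edgeR adjusted p = 0.0281 each).

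The fibril-forming chains Col1a1 (0.42), Col3a1 (0.60), Col5a1 (0.63), Col5a2 (0.54) and Col5a3 (1.05 ± 0.23) rose too, as did Col15a1 (0.97), a collagen of the basement membrane zone. Col1a2 (0.15 ± 0.09) and the basement membrane chains Col4a1 (0.68) and Col4a2 (0.70) did not pass, and Col16a1 had −0.95 ± 0.31 (edgeR adjusted p = 0.08). Of 24 genes of matrix crosslinking and remodelling 3 rose and 0 fell, with a median of 0.16, which was 0.054 without Sham_SHU2. They were Lox, which crosslinks collagen (0.49 ± 0.09), Serpinh1, a collagen chaperone (0.85 ± 0.19), and Sparc, a collagen-binding protein (0.54 ± 0.12). Lox had 64.27, 74.26 and 82.78 CPM with SHU9119 and 32.55, 52.78 and 62.47 CPM with vehicle, without overlap. The matrix proteases Mmp2 (−0.09) and Mmp14 (−0.24) did not pass. In 3 lists chosen after the values were seen, 3 of 17 basement membrane genes (Nid1 0.56, Nid2 0.81, Hspg2 0.64; median 0.06, and 0.116 without Sham_SHU1), 3 of 20 integrins (Itga5 0.45, Itga6 0.60, Itgb1 0.26; median 0.05, with −0.001 without VX_Veh1 and 0.148 without Sham_Veh4) and 3 of 10 annexins (Anxa1 0.65, Anxa2 0.70, Anxa6 0.39; median 0.22) rose and none fell. Of all genes 1.42% rose, and the choice of these lists partly builds their counts in.

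**Figure D3:**
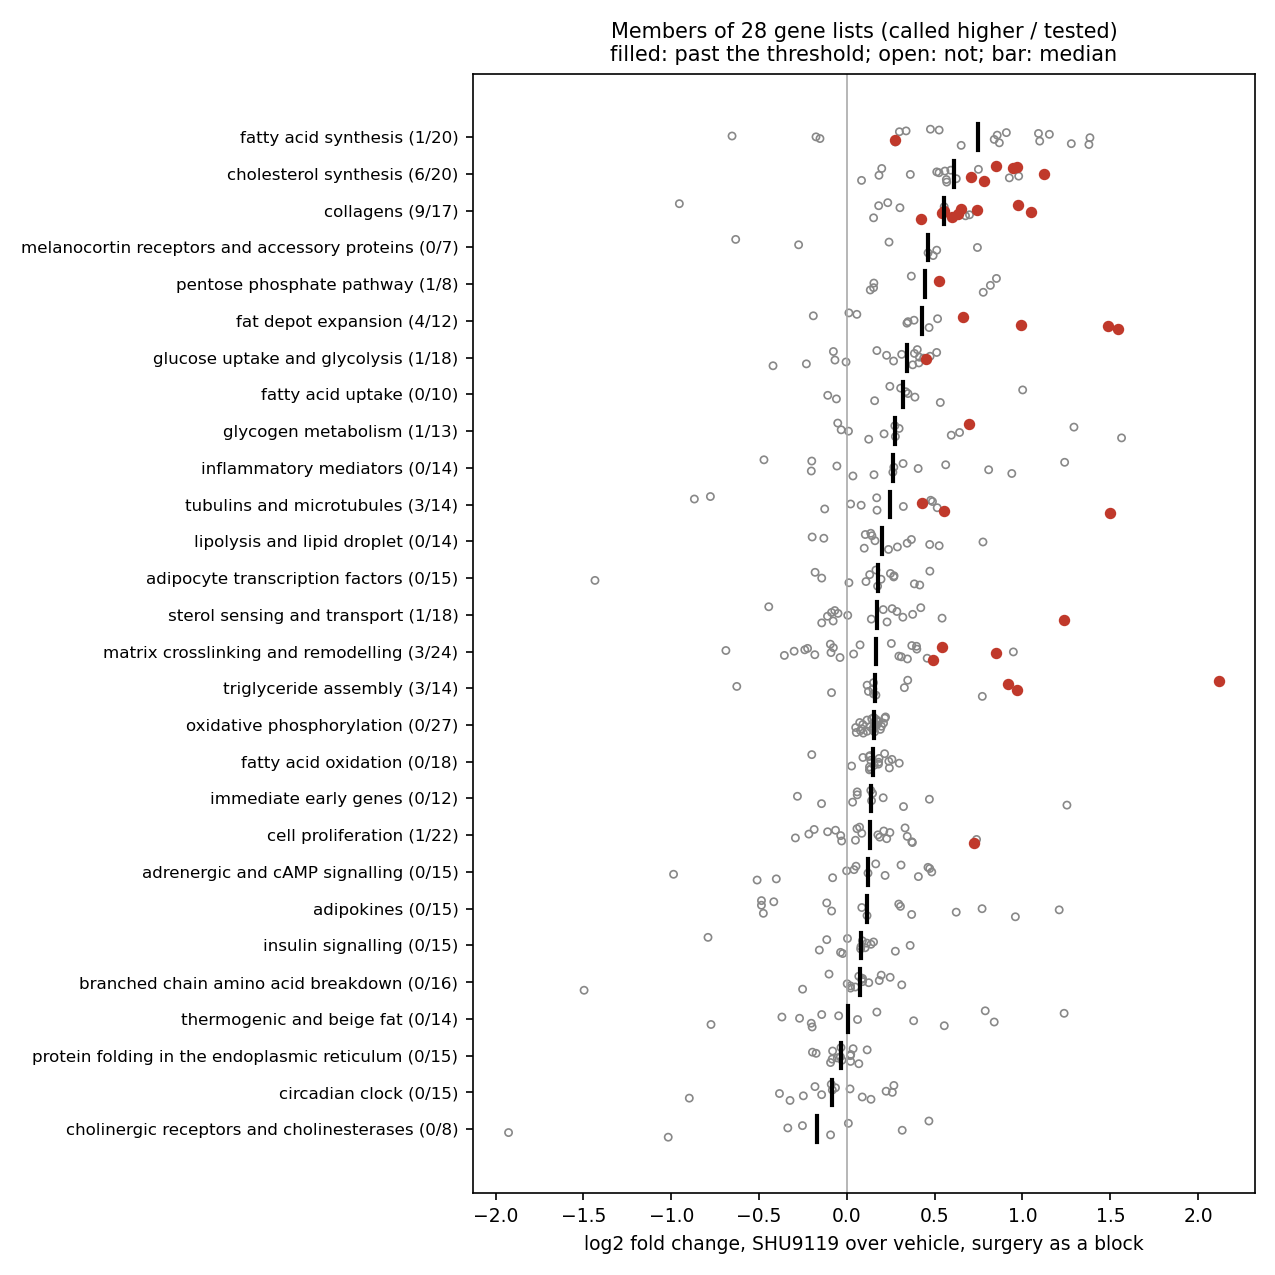
The 28 pathway lists run down the page with the log2 fold change of SHU9119 over vehicle on the x axis; each point is a tested gene, filled where it passed the test, and the bar is the list's median. Cholesterol synthesis and collagens hold the most filled points, 6 and 9, and 16 lists hold none.

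Among tubulins and other microtubule genes 3 of 14 rose and 0 fell, with a median of 0.25. Tuba1a, an alpha-tubulin, had 217.0, 432.2 and 873.9 CPM in SHU9119 libraries, against 107.0, 177.6 and 219.7 CPM in vehicle libraries. The ranges overlapped narrowly, and the log2 fold change was 1.501 ± 0.249 (edgeR adjusted p = 0.0281). Tuba1b rose by 0.55 ± 0.11 and Tubb5 by 0.43 ± 0.09. Tuba1a and Tuba1b are near copies of each other, and reads could have been split between them in the authors' counting. The list's median was 0.391 without Sham_Veh4. Of 22 proliferation genes 1 rose, Mki67, a protein of dividing cells (0.73 ± 0.17), and 0 fell; Top2a (0.37 ± 0.29), Ccnb1 (−0.03) and Pcna (0.06) did not pass. The median of that list was 0.13, and it was 0.079 without Sham_Veh3 and 0.446 without Sham_Veh4.

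The firmest calls were of genes outside these lists, named because of the values just given. Fmr1, which encodes the RNA-binding protein FMRP (chromosome X, 68678536 to 68717963), had 221.5, 347.4 and 459.2 CPM in SHU9119 libraries, against 122.9, 169.4 and 218.5 CPM in vehicle libraries. Tph2, the neuronal tryptophan hydroxylase of serotonin synthesis (chromosome 10, 115078641 to 115185022), was a low transcript, with 0.3418, 0.9508 and 3.089 CPM, against 0.07689, 0.1645 and 0.3304 CPM. Neither gene's groups overlapped. Tph2 passed the low-count filter only through SHU9119 libraries, where it was high. Its separation, its p-value and its passing in every fit are therefore no independent support. Fmr1 rose by 0.99 ± 0.13 log2 units (edgeR adjusted p = 0.0133) and Tph2 by 2.71 ± 0.32 (0.00684). Trp53inp2, a protein of autophagy and transcription (385.0, 429.7 and 612.8 CPM, against 158.1, 252.5 and 372.7 CPM), and Adamts2, the protease that trims procollagen ends (120.8, 141.5 and 178.3 CPM, against 67.23, 93.98 and 115.3 CPM), also rose without overlap. Their edgeR adjusted p was 0.0281 each.

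The remaining genes among the 12 largest increases at 5 CPM or more differ in kind. Oxtr, the oxytocin receptor gene, had 36.51, 63.72 and 113.3 CPM with SHU9119 and 18.84, 33.03 and 44.52 CPM with vehicle. The ranges overlapped, and it rose by 1.17 ± 0.25 log2 units (edgeR adjusted p = 0.0415). Tlcd2 (1.33 ± 0.30), Tmem79 (1.25 ± 0.30) and Paqr9 (1.17 ± 0.25) encode membrane proteins, and Fam83a (1.08 ± 0.22) a signalling scaffold. Klf14, an imprinted transcription factor tied to metabolic traits, rose by 1.13 ± 0.23 at 2.519, 3.13 and 7.536 CPM with SHU9119 against 0.9172, 1.522 and 2.803 CPM with vehicle. In a list of 22 imprinted genes chosen after the values were seen, Mest, Klf14 and Ndn rose and 0 fell (1.42% of all genes rose). The median was 0.085, or 0.143 without Sham_Veh2.

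At this threshold fewer genes were called lower than higher, while at an unadjusted edgeR p under 0.05 more genes were lower (2669) than higher (2118). The largest decreases at 5 CPM or more are of mixed kinds. Net1, an exchange factor for RhoA (chromosome 13, 3882018 to 3918220), had 105.5, 160.4 and 247.0 CPM in SHU9119 libraries, against 202.7, 312.9 and 799.3 CPM in vehicle libraries. The highest value was that of Sham_Veh3, and the groups overlapped. It fell by 1.20 ± 0.26 log2 units (edgeR adjusted p = 0.0415). Bbs2, a subunit of the BBSome that carries cargo in cilia, had 12.33, 16.05 and 20.32 CPM with SHU9119 and 20.97, 24.37 and 47.04 CPM with vehicle, without overlap, and fell by 0.72 ± 0.15. Slc4a4, a sodium bicarbonate cotransporter (−1.07 ± 0.26), Chdh, choline dehydrogenase (−0.69 ± 0.16), and Ivns1abp, an actin-binding protein (−0.91 ± 0.21), fell with overlapping groups. Further ones were Rdh18-ps (−1.69 ± 0.40), which is a pseudogene, Fam227a (−1.53 ± 0.36), Rassf6 (−0.85 ± 0.16), Echdc2 (−0.76 ± 0.17), Ier5 (−0.76 ± 0.18) and Cadps2 (−0.70 ± 0.14).

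Summed ciliated epithelium markers were lower with SHU9119 as well (median 79.32 CPM, against 423.4 CPM with vehicle), and their part in the decreases was not tested beyond the fit with that sum. In that fit the log2 fold changes came to −0.62 for Rdh18-ps, −0.60 for Fam227a, −0.47 for Slc4a4, −0.48 for Ivns1abp, −0.39 for Chdh and −0.46 for Bbs2, while they were −1.28 for Net1 and −1.03 for Rassf6. With the epididymis and testis sums added, Rdh18-ps stood at −0.47, Fam227a at −0.50, Slc4a4 at −0.36, Ivns1abp at −0.35, Echdc2 at −0.36, Chdh at −0.30 and Bbs2 at −0.35. In Sham_Veh3 and VX_Veh4 the ciliated sums were as low as those of SHU9119 libraries. Slc4a4 had 45.47 and 29.22 CPM there, within the SHU9119 range of 21.04 to 49.07 CPM. Net1 had 799.3 CPM in Sham_Veh3, above its SHU9119 range of 105.5 to 247 CPM, and 202.7 CPM in VX_Veh4, within it. Both genes are examples, and a link to the ciliated sums was not tested. Cbx7, a Polycomb subunit named after its values were seen, fell by 0.67 ± 0.11 (28.87, 39.15 and 54.29 CPM with SHU9119, against 47.47, 61.8 and 82.99 CPM with vehicle; edgeR adjusted p = 0.0281). In a list of 24 splicing regulators, also chosen after the values were seen, 4 fell and 0 rose (0.372% of all genes fell). They were Luc7l (−0.29), Luc7l3 (−0.38), Pnisr (−0.43) and Prpf40b (−0.37), and 22 of the 24 lay below 0 with a median of −0.19, or −0.14 with the ciliated sum in the model and −0.125 without VX_Veh1.

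No member of the other 16 pathway lists passed. In fat itself the receptor genes Mc3r and Mc4r had too few counts to test, as had the agouti gene (listed as a). The 7 melanocortin genes tested had a median of 0.46 and included Mc2r, the corticotropin receptor of adipocytes (0.46 ± 0.16), and its accessory protein Mrap (0.74 ± 0.23; edgeR adjusted p = 0.0728). All 27 oxidative phosphorylation genes lay above 0, with a median of 0.15. Adipocyte transcription factors (15 genes) had a median of 0.175, fatty acid oxidation (18) 0.15, adrenergic and cAMP signalling (15) 0.12, insulin signalling (15) 0.08 and thermogenic genes (14) 0.01. With the epididymis, testis and ciliated sums in the model the medians were −0.021 for oxidative phosphorylation, −0.028 for fatty acid oxidation and −0.08 for adipocyte transcription factors. The adrenergic median was 0.067 without VX_Veh1 and −0.001 with the ciliated sum alone, and the thermogenic median was −0.047 without VX_Veh4. Ucp1 was too low to test. The remaining lists had medians from −0.17 (cholinergic genes) to 0.265 (inflammatory mediators, 0.021 without Sham_SHU2).

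Among 22 lists of cell type markers, 1 had a called gene: Dpt, a matrix protein of fat progenitors, rose by 0.52 ± 0.12 in a list of 12 with a median of −0.03. That median was 0.039 without Sham_SHU1 and −0.108 without VX_SHU4. The 11 adipocyte markers had a median of 0.22, which was 0.141 without VX_Veh1, 0.366 without Sham_Veh3 and −0.082 with the 3 sums in the model. The 11 mesothelium markers had one of −0.355, which was −0.201 without Sham_SHU1. Summed mesothelium markers had 81.78, 202.1 and 324.5 CPM with SHU9119, against 162.4, 357.1 and 689.9 CPM with vehicle. Summed lipid-associated macrophage markers had 11610, 18680 and 25050 CPM, against 8011, 12860 and 16690 CPM, and summed nerve and Schwann cell markers 323.2, 399.0 and 500.9 CPM, against 248.5, 291.8 and 357.3 CPM. These sums overlapped between the infusions. The lipid-associated macrophage markers include Lpl and Fabp5, which are not confined to macrophages, so their sum is no measure of these cells. That list had a median log2 fold change of only 0.055, with 6 of 11 members above 0 and 5 below. That median was −0.151 without VX_SHU4. The nerve and Schwann cell list had a median log2 fold change of −0.30, opposite in sign to its sum, and −0.155 without VX_Veh1. The part of these cell types in the gene differences was not tested.

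The difference pointed the same way after both surgeries, which is partly built into a call made on their average: all 237 genes called higher and all 62 called lower kept their sign in sDVX mice and in sham mice. The medians were 0.45 in sDVX mice and 0.59 in sham mice for the genes called higher, and −0.40 and −0.51 for those called lower, and 192 of the 237 had the larger increase in sham mice. Separate libraries give a freer comparison, made here on the 11993 genes with a mean of at least 5 CPM. At an unadjusted edgeR p under 0.01, 731 of them were higher in sham mice. Of these, 96.3% were also higher in sDVX mice, where 50.9% of the 11993 were. At an unadjusted edgeR p under 0.05 there, 27.9% of the 731 were higher, against 6.9% of the 11993. In sham mice 314 were lower at p under 0.01. Of those, 75.8% were lower in sDVX mice, against 49.1% of the 11993. At p under 0.05 there, 15% of the 314 were lower, against 6.11% of the 11993. Across the same 11993 genes, Pearson's r between the log2 fold changes in sDVX mice and in sham mice was 0.76 and Spearman's rho 0.59. Genes are not independent replicates, and the values describe these libraries. The ciliated epithelium markers were also lower after both surgeries, with medians of −2.83 in sDVX mice and −2.07 in sham mice. Their part in this agreement was not tested.

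In the test of the difference between the surgeries 0 of 16682 genes (0%) passed edgeR's adjusted threshold, 794 had an unadjusted p under 0.05, and DESeq2 called 8 and limma-voom 13. Of the 299 called genes, 20 (6.69%) had an interaction p under 0.05. Emp1, a membrane protein, had a log2 fold change of 1.18 in sDVX mice and 0.22 in sham mice, and Scd2 one of 0.32 in sDVX mice and 1.99 in sham mice. Fatty acid synthesis had a median of 0.305 in sDVX mice and 1.175 in sham mice, and cholesterol synthesis one of 0.38 in sDVX mice and 0.93 in sham mice. Collagens differed little in median, with 0.53 in sDVX mice and 0.61 in sham mice, and fat depot expansion had 0.56 in sDVX mice and 0.31 in sham mice. In edgeR no single gene passed the adjusted test of this difference, and the list medians were not tested.

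**Figure D4:**
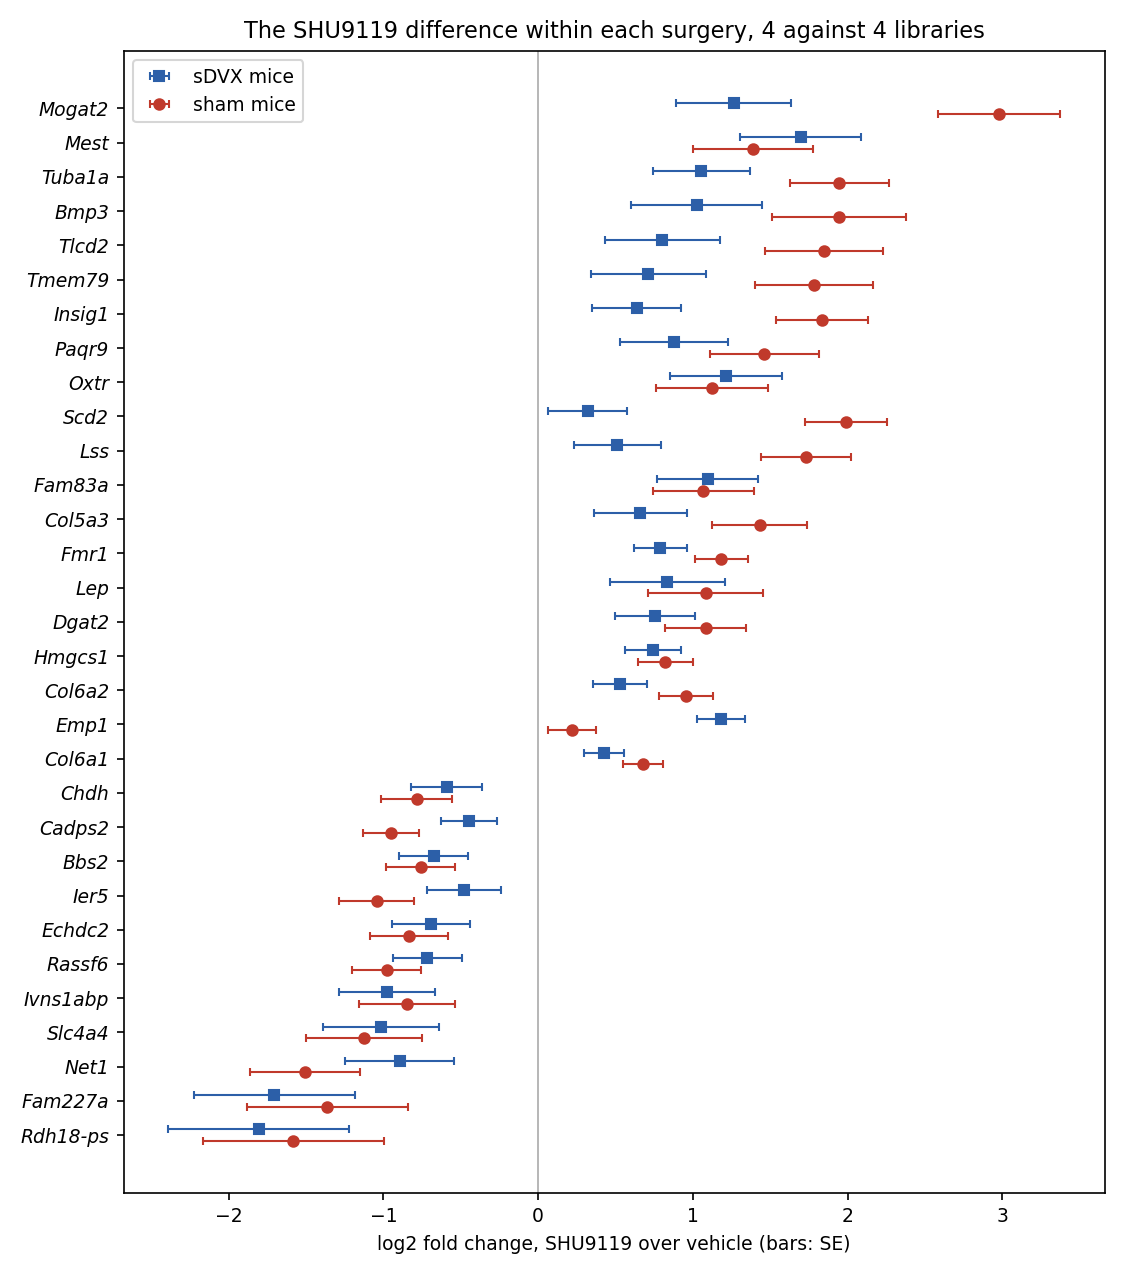
The log2 fold change of SHU9119 over vehicle is on the x axis with its SE, for sDVX mice (squares) and sham mice (circles), 4 against 4 libraries each. Every gene shown lies on the same side of 0 after both surgeries, with Scd2 further from 0 in sham mice and Emp1 further from 0 in sDVX mice.

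**Figure D5:**
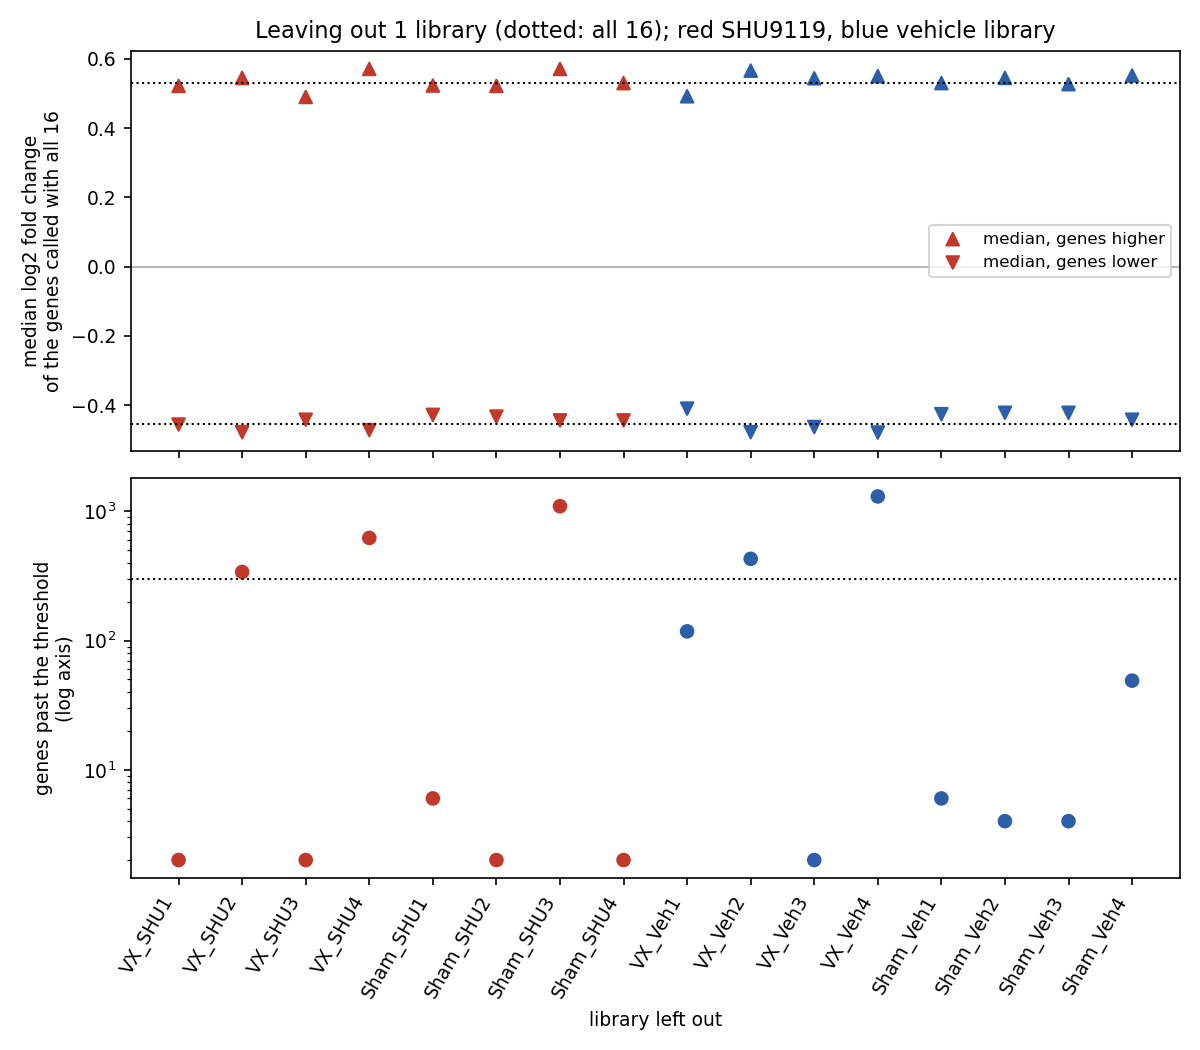
Each position on the library axis is a fit without that library; one panel gives the median log2 fold change of the 237 and the 62 called genes, and the other the number of genes passing the test on a log axis. The medians stay at 0.49 to 0.57 and −0.48 to −0.41, while the number called runs from 2 to 1308.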

How the data were processed

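Gonadal fat mRNA was measured by sequencing of polyadenylated RNA from 16 libraries in a design of surgery by infusion. The deposited table holds raw counts for each gene; the submitters' processing notes name bcl2fastq, TopHat, edgeR and build mm10, with no tool for the counting step, no strand setting and no annotation. Of 24454 gene numbers 24374 were matched to RefSeq GRCm38.p6.

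Genes were filtered with filterByExpr by group, scaled by TMM and fitted in edgeR 4.0.16 (R 4.3.3) with surgery plus infusion and the robust quasi-likelihood F test on 13 residual degrees of freedom, with Benjamini-Hochberg adjustment over 16682 genes. Log2 CPM used a prior count of 2. Alternatives used DESeq2 1.42.0, limma 3.58.1 (voom with sample weights), sva 3.50.0, other scaling, filters, model terms and each library left out. On simulated counts, 34% of 50 genes changed 1.5-fold and 64% of those changed 2-fold were called, with 4 false calls among 16374 unchanged genes. The simulation drew each gene independently, with no surgery effect and no tissue RNA that moves many genes together. Its shares and false calls may therefore not carry over to these libraries.

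Members, gene lists and tests were chosen with earlier results of these data known. Named genes are the 12 largest changes per direction among called, named genes of at least 5 CPM, the 3 smallest p-values of each list with a called member, and Lep, Adipoq, Pparg, Fasn, Scd1, Scd2, Mest and Emp1; the list genes and those said to be chosen after their values were seen were added to them; some members are not reported here. Lists are described by counts and medians, and no list was tested. Replicate pairs of a group differed by far more than sampling noise (24 pairs, chi-square per degree of freedom from 11.8 to 204), so no library was counted as a repeat. Depth limits the low genes, such as Tph2.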

Additional observations from a re-analysis of the deposited data

Results flagged for a closer look

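In 296 groups of 4 libraries, one per quantity and group, the lowest and the highest library were compared with the rest, and 31 stood apart by Dixon's test; chance alone gives about 1 in 20 groups. Genes are not independent, and no cause was tested.

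VX_Veh1, which had the highest ciliated marker sum, stood apart most often. It was low against the range of the other VX_Veh libraries for Insig1 (129.2 CPM; others 257.9 to 281.3), Paqr9 (6.658; 13.95 to 15.84), Rpe (42.99; 65.51 to 70.08), G6pdx (129.2; 227.9 to 251.8), Gys2 (9.443; 17.41 to 19.67), Thrsp (457.8; 1255 to 1465) and Ccne1 (2.045; 3.767 to 4.127). It was high for Bbs2 (47.04; 22.6 to 24.87), Echdc2 (125.2; 62.36 to 69.28) and Ivns1abp (915; 375.6 to 395.7).

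VX_SHU3 was high among VX_SHU libraries for the lipid and glucose genes G6pdx (457.2 CPM; 249.4 to 263.1), Gys2 (52; 13.62 to 15.73) and Pgam1 (328.3; 239.7 to 250.5), and for Paqr9 (36.93; 18.3 to 19.72) and Mcm3 (16.44; 13.78 to 13.98), and low for Bbs2 (13.53; 19.68 to 20.32). Rdh18-ps was high in VX_SHU2 (8.39; 3.843 to 4.254).

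Sham_SHU3 was low among Sham_SHU libraries for Fmr1 (349.4 CPM; 447.4 to 459.2), Scd2 (622.2; 1172 to 1268), Ppp1r3d (18.1; 25.8 to 26.43), Lpgat1 (722.1; 913.3 to 947.7) and Mcm3 (14.27; 18.04 to 18.5). Mest was high in Sham_SHU2 (222.1; 103.7 to 114.2).

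Among vehicle libraries after sham surgery, Sham_Veh3 was low for Tuba1a (112.5 CPM; 201.5 to 219.7) and for the summed ciliated epithelium markers (60.14; 446.4 to 540.1), and high for Sparc (3219; 2306 to 2400), Ier5 (40.06; 26.29 to 27.51) and G6pdx (284.9; 164.2 to 170.3). Hmgcs1 was high in Sham_Veh2 (314.5; 201.6 to 210.8) and Tuba1b low in Sham_Veh1 (259.9; 274 to 275.3). The summed epididymis markers were high in VX_Veh4 (9831; 9.346 to 25.54).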

How the results depend on the processing

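The direction of all 299 called genes held under every alternative run, and their number did not. Counts are given as called, higher and lower. DESeq2 size factors, non-robust dispersion and a fit of 4 group means called 332, 302 and 312 genes, near the 299 of the reported fit. Without a low-count filter the test called 188, 167 and 21, with 1 surrogate variable 90, 67 and 23, and with epididymis and testis marker sums as covariates 124, 101 and 23. DESeq2's Wald test called 2864, 1355 and 1509 and limma-voom 1781, 893 and 888. Without the 6 libraries whose epididymis or testis marker sum reached 500 CPM it was 3401, 1378 and 2023. In edgeR the count was 0 with surgery left out of the model (4617 genes at an unadjusted p under 0.05), with the ciliated sum as covariate, an alternative chosen after seeing the data (1503), or with the ciliated, epididymis and testis sums together (1345). With 1 library left out, 2 to 1308 genes were called, 2 to 753 higher and 0 to 682 lower. The cause of these shifts was not tested. The interaction called 8 genes in DESeq2, 13 in limma-voom, 0 in edgeR and 0 to 1 with 1 library left out, the 1 being without Sham_Veh4.

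With the replicate number as a block 0 genes passed edgeR's test, higher or lower, while 4204 had an unadjusted p under 0.05, and the interaction had 0 as well. Same-numbered libraries of different groups had a median correlation of 0.18, between −0.69 and 0.68, against −0.03 for other numbers; 13 of 24 pairs were over 0.1, and 2 of 16 libraries correlated best with their own number. The reported fit did not use the numbers to pair the samples, and these values do not settle whether they do. The 4 libraries numbered 4 had epididymis sums of 544.9 to 10450 CPM, and those numbered 1 or 2 at most 99.2 CPM.

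The sign turned for Pparg (−0.07981) and Adipoq (−0.1948) with the 3 marker covariates, for Adipoq with the ciliated sum alone (−0.1134) and in sham mice alone (−0.00897), for the triglyceride assembly median with the 3 covariates (−0.026), where lipolysis (−0.009), adipokines (−0.022) and amino acid breakdown (−0.134) turned too, beside the lists named with their values in the results, for the fat progenitor median without Sham_SHU1 (0.039; range −0.108 to 0.039 with 1 library left out) and for the integrin median without VX_Veh1 (−0.001; range −0.001 to 0.148). Over all settings the median turned for 11 of 28 pathway lists, 15 of 22 marker lists and 1 of 5 added lists; the cause was not tested. Of the named genes' values with a library left out, 602 kept their side of the threshold, 514 lost the call and 20 gained it; under the other settings these were 648, 378 and 35. Low genes, small fold changes and differences between the surgeries are limited most by the 4 libraries a group.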

Other observations

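Some further genes called higher, in none of the lists fixed for pathways, were picked by hand after their values were seen and are given as values only. Vim, an intermediate filament protein, averaged 1315 ± 268.9 CPM in SHU9119 libraries and 881.2 ± 158.2 CPM in vehicle libraries (SD, n = 8 each), with overlapping ranges and a log2 fold change of 0.58 ± 0.12 (SE). Lgals1, a galectin, rose by 0.68, Cavin3, a caveola coat protein, by 0.67, and the annexin partners S100a10 and S100a11 by 0.40 and 0.72. The actin-binding genes Cald1 (0.55), Palld (0.46) and Tpm4 (0.41) rose as well. The elastic microfibril genes Fbn1 (0.71) and Fbln2 (0.44) rose, and Fbln2 averaged 176.8 ± 13.7 CPM with SHU9119 and 130.1 ± 18.83 CPM with vehicle, without overlap.

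Other called genes with a known signal role, also picked after their values were seen, were Inhbb, which encodes a subunit of activin B and is expressed by adipocytes (0.84 ± 0.18), Fzd4, a Wnt receptor (0.48), and Cxcr4, a chemokine receptor (0.80). Among genes called lower were Cdkn1b, a cell cycle inhibitor (−0.28), and Eif4a2, a translation helicase (−0.28).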
